A study of Homo sapiens with 6 samples.

Results

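The genes described here are 37 genes of the antioxidant response of human cells: the transcription factor NRF2 (gene NFE2L2), its partners and inhibitor, its best known target genes, and the enzymes that remove superoxide and peroxides. They form a list of gene names whose rule uses no measured value, drawn up with earlier results of these data known. All 37 had a transcript in the deposited table, out of 33789 genes with a matched transcript, and 36 of them were among the 12301 genes abundant enough to test. The RNA came from HepG2, an established human liver cancer cell line. The 3 atractylon libraries were made from HepG2 cells given 20 µM atractylon, a sesquiterpenoid of the essential oil of Atractylodes rhizomes, and the 3 control libraries from HepG2 cells without atractylon. Both groups were grown in DMEM with fetal bovine serum, and neither a vehicle nor the length of treatment is given in the sources used here. Nothing in the labels says that the replicates came from different cultures. The p-values therefore reflect the spread between these 6 libraries alone, and that spread may be technical.

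NRF2 is made all the time and destroyed almost as fast, because KEAP1 hands it to a ubiquitin ligase. Electrophiles and oxidants modify cysteines of KEAP1, NRF2 then escapes, enters the nucleus, pairs with a small MAF protein and binds antioxidant response elements near its target genes. Those genes make glutathione and thioredoxin, supply NADPH and clear reactive carbonyls and quinones, a protection on which the liver depends when it handles drugs. Much of this control is on the NRF2 protein, so the level of NFE2L2 mRNA says little about NRF2 activity, while the mRNAs of target genes are its usual readout.

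The antioxidant response element was looked for as TGACNNNGC on both strands, in RefSeq promoter windows of GRCh38.p14 that run from 250 bases before to 50 bases after a gene's start. Windows were given for 30 of the 37 members, and 8 of these (26.7%) held a match, against 1852 of 9307 tested genes with a window (19.9%). AKR1B10, GSR, HMOX1, PRDX1, PRDX6, SLC7A11 and SOD1 had no window and were not searched. A match is a description of the letters in this window, and known elements farther from the start are outside it. The stretches are shown because this motif is the one that NRF2 and small MAF proteins are known to bind; binding was not measured here. They run 5′ to 3′ on the strand of the gene, and the match is in capitals, in one orientation or the other. TXNRD1, KEAP1 and ME1 each held a further match that is not shown.
GCLM, chr1:93909446-93909474, minus strand: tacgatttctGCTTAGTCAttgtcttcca
GPX2, chr14:64942849-64942877, minus strand: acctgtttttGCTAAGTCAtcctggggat
TXNRD1, chr12:104215670-104215698, plus strand: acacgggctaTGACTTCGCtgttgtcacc
TXNRD1 at a second start, chr12:104286920-104286948, plus strand: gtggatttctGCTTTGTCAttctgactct
KEAP1, chr19:10502784-10502812, minus strand: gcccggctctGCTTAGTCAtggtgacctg
PGD, chr1:10398853-10398881, plus strand: cctcgccgggGCAATGTCAtctaggtgct
EPHX1, chr1:225825266-225825294, plus strand: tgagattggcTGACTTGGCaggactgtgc
CBR1, chr21:36069855-36069883, plus strand: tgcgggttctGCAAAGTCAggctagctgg
ME1, chr6:83431170-83431198, minus strand: tctcctgccaTGACTCAGCgcttctcgca
The 8 genes with a match had different levels: GPX2 was among the most abundant genes of these cells, and ME1 was listed at 0.

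The libraries held 5859575 to 8832092 expected counts, of which 8.70% to 9.08% belonged to transcripts with no match in the annotation. All 9 hepatocyte markers looked at were above 94 FPKM on average (albumin at 3591 FPKM and APOA1 at 5469 FPKM). Their summed levels were 14480 to 16520 FPKM in atractylon libraries and 15040 to 16180 FPKM in control libraries. Such markers show a hepatocyte-like profile and do not identify the cell line. Fibroblast markers COL1A2, DCN and LUM were at 0 in every library, with PDGFRB the only 1 of the 5 above 0.5 FPKM. Of 5 blood markers HBB was at 0 in every library, while lysozyme (LYZ) averaged 568 FPKM and CD14 averaged 8.00 FPKM, so the summed blood markers were 529 to 654 FPKM in atractylon libraries and 524 to 676 FPKM in control libraries. The 3 endothelial markers summed to at most 2.49 FPKM in atractylon libraries and 3.69 FPKM in control libraries. In bulk RNA, fewer cells with a transcript and less of it per cell cannot be told apart.

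No member passed the test between atractylon and control. With edgeR (quasi-likelihood test, p-values adjusted over all genes by Benjamini-Hochberg), 0 of 36 tested members passed an adjusted p of 0.05, as did 0 of 12301 genes (0%), and the adjusted p was 0.9999 for every member. At an unadjusted p below 0.05 there were 0 members, against 1.59% of all genes, and DESeq2 and limma on log2 FPKM also had 0 members at either threshold. The fitted log2 fold changes of the members ran from -0.29 for AKR1C2 to 0.25 for GSR, with a median of 0.063, beside a median of 0.012 over all genes tested. Positive values were found in 25 members and negative values in 11 (69.4% positive, beside 53.3% of all genes). The count of positive members was 18 without atractylon replicate 2 and 30 without control replicate 1.

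The members were more abundant than most genes, and their fold changes had smaller errors. Their median level was 197 FPKM against 11.1 FPKM over all genes tested, and 20 of 36 (55.6%) lay within the 1230 most abundant genes. The median standard error of a member's log2 fold change was 0.117, against 0.196 over all genes. In the edgeR fit of all 6 libraries, the 95% interval excluded changes of 1.5-fold or more, up or down, for 31 of 36 members (86.1%). That held for 54.7% of all genes. For all 36 tested members the interval of this fit excluded changes of 2-fold or more. The 5 members with intervals reaching beyond 1.5-fold were NFE2L2, SLC7A11, PRDX3, AKR1C2 and SOD2. Intervals of this width bound how large an undetected change could have been in that fit, and other fits gave other estimates. A p above the threshold does not show that the groups were equal.

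**Figure D1:**
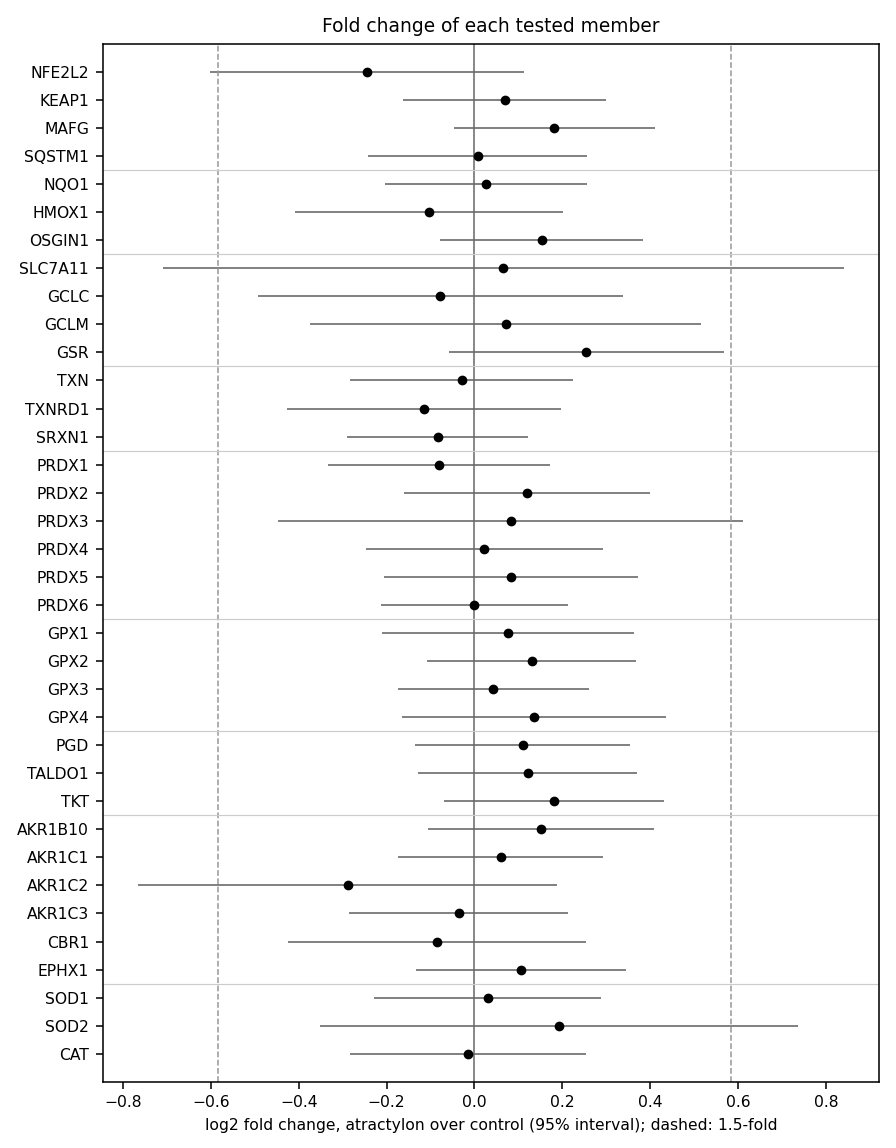
Fold change of each tested member, atractylon over control, on the log2 scale (x axis), with genes grouped by role down the page; points are edgeR estimates and bars their 95% intervals, with dashed lines at 1.5-fold. Every interval of the 36 members spans 0, and those of NFE2L2, SLC7A11, PRDX3, AKR1C2 and SOD2 cross a dashed line.

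The groups of libraries did not overlap in 3 members, MAFG, OSGIN1 and GSR, each with higher values in all 3 atractylon libraries (8.33% of the members). Over all genes tested, 2.72% did not overlap with atractylon above control, 3.01% with atractylon below control, and 5.72% in either direction. The members' share is above these, and it is 3 genes, none of which passed the test. Levels are given below as CPM, which corrects counts for library size by TMM and suits the comparison of libraries. FPKM, which also divides by length, is used to compare genes.

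**Figure D2:**
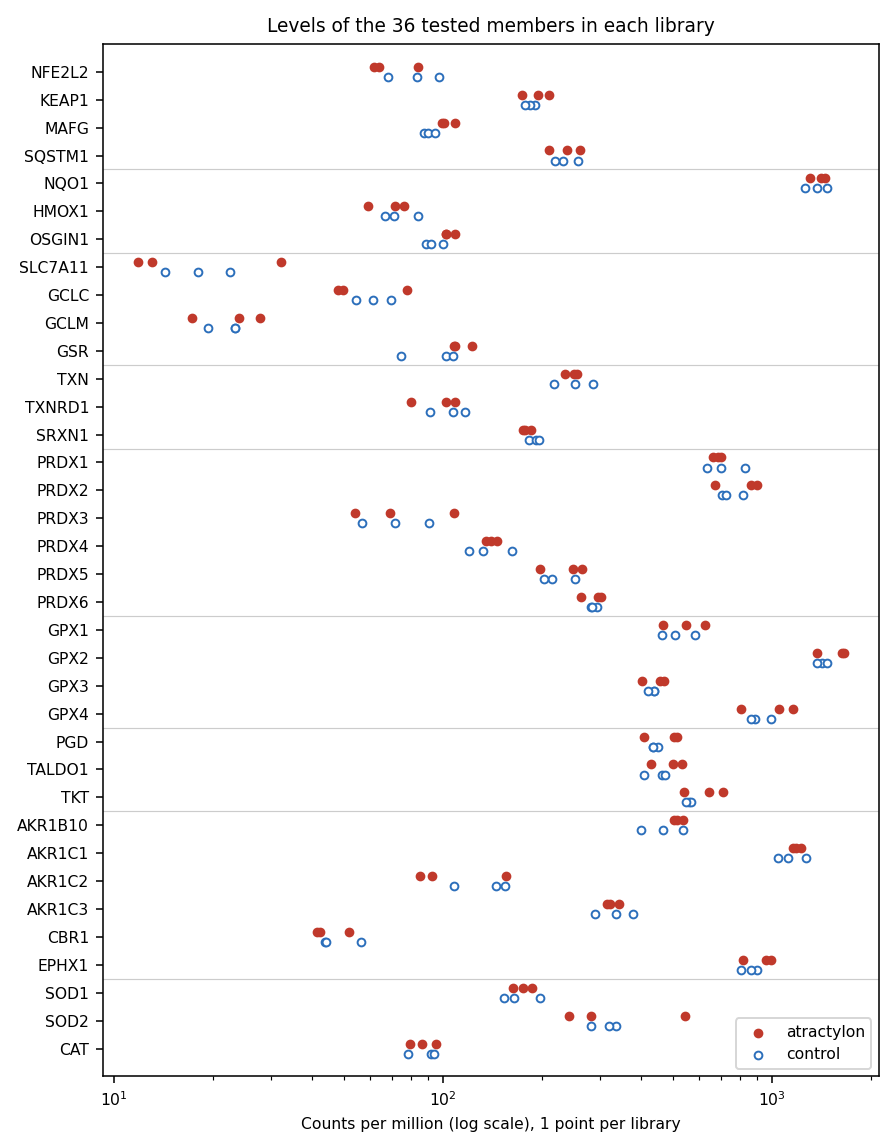
CPM of the 36 tested members in each library (log x axis), grouped by role down the page; filled points are the 3 atractylon libraries and open points the 3 control libraries. The points of each gene intermingle except in MAFG, OSGIN1 and GSR, and SLC7A11 and SOD2 each have 1 atractylon library far to the right.

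Among the regulators, NFE2L2 (ENSG00000116044), which encodes NRF2 itself, was at 83.9, 61.8 and 64.0 CPM in atractylon replicates 1 to 3, against 97.4, 68.2 and 83.5 CPM in control replicates 1 to 3. Atractylon replicate 1 lay inside the control range and the other atractylon libraries below it, so the groups overlapped. The log2 fold change was -0.25 ± 0.16 (SE, n = 3 per group), and it was -0.12 without control replicate 1 and -0.40 without atractylon replicate 1. KEAP1, the cysteine sensor that marks NRF2 for destruction, was at 174, 210 and 195 CPM in atractylon libraries, against 191, 184 and 177 CPM in control libraries. Its values interleave, and the fold of 1.049 had a 95% interval of 0.894 to 1.23. MAFG, a small MAF partner of NRF2 on DNA, was at 99.3, 109 and 101 CPM in atractylon libraries, against 87.4, 90.2 and 94.4 CPM in control libraries. Every atractylon library was above every control library by a small margin, at a log2 fold change of 0.18 ± 0.10 (SE, edgeR adjusted p = 0.9999, n = 3 per group). SQSTM1, the autophagy receptor p62 that traps KEAP1 and is itself a target, was at 211, 262 and 239 CPM in atractylon libraries, against 232, 219 and 257 CPM in control libraries. Its groups averaged 237 ± 25.6 CPM and 236 ± 19.4 CPM (SD, n = 3 each).

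The NFE2L2 mRNA was spread over several transcripts whose shares varied between replicates of a group. NFE2L2-202 held 25.8%, 28.1% and 44.6% of the gene's FPKM in atractylon libraries, and 42.8%, 25.3% and 38.0% in control libraries. The short NFE2L2-213 held 42.2%, 12.9% and 16.6% in atractylon libraries, and 12.7%, 35.2% and 38.1% in control libraries. The groups overlapped for both transcripts. KEAP1 was carried mostly by KEAP1-202, with 80.6% to 84.6% of its FPKM over the 6 libraries.

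NQO1, HMOX1 and OSGIN1, targets often used as readouts, averaged 1620, 44.0 and 56.9 FPKM in control libraries, all above the median gene. NQO1, a quinone reductase widely used as an NRF2 readout, ranked 88 of 12301 genes by mean FPKM. It was at 1310, 1452 and 1413 CPM in atractylon libraries, against 1472, 1373 and 1257 CPM in control libraries. The highest and the lowest library were both controls, and the fold of 1.02 had a 95% interval of 0.868 to 1.19. HMOX1, haem oxygenase 1, which is strongly inducible by haem and electrophiles, was at 59.2, 71.7 and 76.0 CPM in atractylon libraries, against 66.7, 84.2 and 71.1 CPM in control libraries. The groups overlapped, and the 95% interval of its fold was 0.753 to 1.15. OSGIN1, an oxidative stress-induced growth inhibitor, was at 102, 109 and 102 CPM in atractylon libraries, against 88.9, 100.1 and 92.3 CPM in control libraries. Its groups were close but did not overlap, and the log2 fold change was 0.15 ± 0.10 (SE, edgeR adjusted p = 0.9999, n = 3 per group). With an offset for the GC trend of each library, that value was 0.077.

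Glutathione synthesis starts with cystine, which SLC7A11 brings into the cell. SLC7A11 was the scarcest tested member, at 2.35 FPKM and rank 10098, and was at 32.2, 11.8 and 13.0 CPM in atractylon libraries, against 22.6, 14.3 and 18.1 CPM in control libraries. Atractylon replicate 1 was the highest of the 6 libraries and the other atractylon libraries were the lowest. Its log2 fold change of 0.07 ± 0.35 (SE, n = 3 per group) was -0.55 without atractylon replicate 1 and -0.10 without control replicate 2. With all 6 libraries it was -0.04 with that GC offset and -0.46 by limma on log2(FPKM + 0.5), so its sign was not settled. GCLC, the catalytic subunit of glutamate-cysteine ligase, the rate-limiting enzyme, was at 77.7, 48.0 and 49.9 CPM in atractylon libraries, against 69.8, 54.6 and 61.4 CPM in control libraries. It showed the same arrangement of libraries. Its modifier subunit GCLM was at 27.8, 17.3 and 23.96 CPM in atractylon libraries, against 23.3, 23.4 and 19.3 CPM in control libraries. Both the highest and the lowest library were treated ones. Glutathione reductase GSR, which returns oxidised glutathione to its reduced form, was at 109, 122 and 108 CPM in atractylon libraries, against 74.6, 102 and 107 CPM in control libraries. It had the smallest unadjusted p of the members, 0.101 by edgeR, but its groups were separated by under 1 CPM, and much of the difference came from control replicate 1. Without that library its log2 fold change was 0.11, against 0.25 with all 6.

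In the thioredoxin system all 3 members had negative fold changes, none past the threshold. TXN, thioredoxin itself, averaged 247 ± 11.1 CPM in atractylon libraries and 252 ± 34.1 CPM in control libraries (SD, n = 3 each). Its reductase TXNRD1, a selenoprotein, was at 109, 80.0 and 103 CPM in atractylon libraries, against 117, 91.7 and 108 CPM in control libraries. In both groups replicate 2 was the lowest. SRXN1, sulfiredoxin, which repairs over-oxidised peroxiredoxins, was at 175, 186 and 178 CPM in atractylon libraries, against 183, 192 and 196 CPM in control libraries. It varied little between libraries, with a coefficient of variation of 2.98% in atractylon libraries and 3.57% in control libraries, and its fold of 0.943 had a 95% interval of 0.818 to 1.09.

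The 6 peroxiredoxins, which reduce hydrogen peroxide with a reactive cysteine, summed to 2059, 2346 and 2305 CPM in atractylon libraries, against 2299, 2251 and 2025 CPM in control libraries. The cytosolic PRDX1 and PRDX2 made up most of that sum, at 682 ± 19.0 and 813 ± 125 CPM in atractylon libraries, and 721 ± 99.95 and 748 ± 58.1 CPM in control libraries (SD, n = 3 each). The mitochondrial PRDX3 was the most variable, at 108, 69.0 and 54.1 CPM in atractylon libraries, against 90.9, 71.5 and 56.8 CPM in control libraries. In both groups replicate 1 was highest and replicate 3 lowest, and the log2 fold change of 0.08 was -0.24 without atractylon replicate 1. PRDX4, the form of the endoplasmic reticulum, PRDX5 and PRDX6 had folds of 1.02, 1.06 and 1.00.

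All 4 glutathione peroxidases had positive fold changes from 0.04 to 0.14 on the log2 scale, none past the threshold. Their summed level was 3047, 3913 and 3689 CPM in atractylon libraries, against 3249, 3483 and 3121 CPM in control libraries. Atractylon replicate 1 was the lowest of the 6 libraries and the other atractylon libraries the highest, the reverse of SLC7A11. GPX2, the gastrointestinal form, ranked 70 by mean FPKM, and was at 1371, 1655 and 1636 CPM in atractylon libraries, against 1418, 1469 and 1374 CPM in control libraries. GPX4, which reduces lipid hydroperoxides in membranes and so guards against ferroptosis, averaged 1004 ± 182 CPM in atractylon libraries and 914 ± 68.5 CPM in control libraries (SD, n = 3 each). The cytosolic GPX1 averaged 547 ± 79.6 CPM and 519 ± 60.8 CPM in the same order. GPX3, a secreted form, averaged 444 ± 35.4 CPM in atractylon libraries and 432 ± 9.84 CPM in control libraries.

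NADPH for both systems comes in part from the pentose phosphate pathway. PGD, which makes NADPH in its oxidative branch, averaged 476 ± 59.7 CPM in atractylon libraries and 441 ± 9.70 CPM in control libraries (SD, n = 3 each). Transketolase TKT was at 542, 711 and 645 CPM in atractylon libraries, against 559, 568 and 547 CPM in control libraries. The control libraries lay within a narrow band, and the atractylon libraries lay below it once and above it otherwise. Transaldolase TALDO1 averaged 487 ± 54.0 CPM in atractylon libraries and 448 ± 34.7 CPM in control libraries. ME1, cytosolic malic enzyme, could not be tested: the 1 ME1 transcript in the table was listed at 0 expected counts in all 6 libraries, where a count of 0 allows up to 0.373 to 0.562 CPM per library (3 counts, counting error only).

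The carbonyl-reducing enzymes include AKR1C1, the most abundant member by FPKM though not by CPM, at a mean of 1933 FPKM and rank 63. It was at 1163, 1225 and 1182 CPM in atractylon libraries, against 1266, 1119 and 1040 CPM in control libraries. The atractylon libraries lay inside the control range. AKR1B10, a reductase of aldehydes and retinal that is often high in liver cancer, was at 506, 537 and 515 CPM in atractylon libraries, against 537, 466 and 401 CPM in control libraries. The control libraries spread more widely than the treated ones, and the log2 fold change was 0.15 ± 0.12 (SE, n = 3 per group). AKR1C3 averaged 326 ± 14.3 CPM in atractylon libraries and 335 ± 43.9 CPM in control libraries (SD, n = 3 each). CBR1, carbonyl reductase, and EPHX1, the microsomal epoxide hydrolase, had folds of 0.943 and 1.08.

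AKR1C2 had the most negative fold change of the members by edgeR with all 6 libraries, and it is a near-identical copy of AKR1C1. Its log2 fold change of -0.29 was -0.69 by limma on log2(FPKM + 0.5). It was -0.61 without atractylon replicate 1 and -0.14 without atractylon replicate 2. How the division of reads between the copies bears on these values was not tested. AKR1C2 was at 156, 85.4 and 92.5 CPM in atractylon libraries, against 145, 155 and 108 CPM in control libraries. Its transcript AKR1C2-209 was listed at 54.6, 0 and 0 FPKM in atractylon libraries, against 34.4, 77.5 and 14.9 FPKM in control libraries. That transcript held from 0% to 61.3% of the gene's FPKM. AKR1C1-203, of 744 bases, held 96.4% to 97.7% of the FPKM of AKR1C1. The coding bases of AKR1C1-203 and AKR1C2-209 were the same at 418 of 424 aligned positions (98.6%), and those of AKR1C1-203 and AKR1C3-202 at 93.1% of theirs. Of the 50-base windows of AKR1C1-203, 45.9% occur letter for letter in an AKR1C2 transcript of the table, and of its 100-base windows 11.9%. Of the windows of AKR1C2-209, 31.6% at 50 bases and 1.39% at 100 bases occur in an AKR1C1 transcript, and the read length is not given in the sources used here. One coding stretch of each, read from GENCODE 29 transcripts of chromosome 10, shows how few letters separate them, with the 1 differing base in capitals.
AKR1C1-203, positions 79 to 198 of the transcript: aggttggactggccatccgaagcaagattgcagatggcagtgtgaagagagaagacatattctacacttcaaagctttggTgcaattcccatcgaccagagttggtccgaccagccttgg
AKR1C2-209, positions 322 to 441 of the transcript: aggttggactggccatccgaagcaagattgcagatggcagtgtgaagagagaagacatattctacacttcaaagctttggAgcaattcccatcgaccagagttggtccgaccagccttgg
A read that lies within this stretch differs between these transcripts only at that base. How well the levels of AKR1C1 and AKR1C2 were told apart was not tested, and shared windows were fewer at 100 bases than at 50.

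Superoxide dismutases turn superoxide into hydrogen peroxide, and catalase splits it. SOD1, the cytosolic form, averaged 175 ± 11.4 CPM in atractylon libraries and 172 ± 22.8 CPM in control libraries, and CAT averaged 87.1 ± 8.07 CPM and 88.1 ± 8.40 CPM in the same order (SD, n = 3 each). SOD2, the mitochondrial form, was at 545, 241 and 283 CPM in atractylon libraries, against 336, 282 and 319 CPM in control libraries. Atractylon replicate 1 was 2.08 times the mean of the other atractylon libraries, and the log2 fold change of 0.19 was -0.25 without it. The long transcript SOD2-210, of 14266 bases, was at 29.1, 6.49 and 9.27 FPKM in atractylon libraries, against 11.6, 8.72 and 10.9 FPKM in control libraries. The short SOD2-203, with most of the gene's FPKM in each library, was at 99.3, 93.9 and 101 FPKM in atractylon libraries, against 107, 88.3 and 89.4 FPKM in control libraries. On FPKM the gene was at 191, 153 and 152 in atractylon libraries, against 192, 159 and 161 in control libraries, so its level in atractylon replicate 1 was high on CPM and inside the control range on FPKM.

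Of 143 member transcripts tested one by one, 0 passed an adjusted p of 0.05 by edgeR over 39881 transcripts (0%), and 3 (2.10%) had an unadjusted p below 0.05, against 2.33% of all transcripts. These 3 were PGD-203, PGD-210 and PRDX5-203, named after their values were seen. PGD-203 was at 15.8, 36.6 and 27.7 FPKM in atractylon libraries, against 11.4, 8.94 and 12.7 FPKM in control libraries. Its groups did not overlap, which held for 16 of the 143 member transcripts tested. The share over all transcripts was not computed, so whether this count is high or low is not known. The log2 fold change of PGD-203 was 1.28 ± 0.40 (SE, edgeR adjusted p = 0.9999, n = 3 per group). The full-length PGD-201, with 59.8% to 76.3% of the gene's FPKM, averaged 230 ± 22.6 FPKM in atractylon libraries and 227 ± 5.81 FPKM in control libraries.

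**Figure D3:**
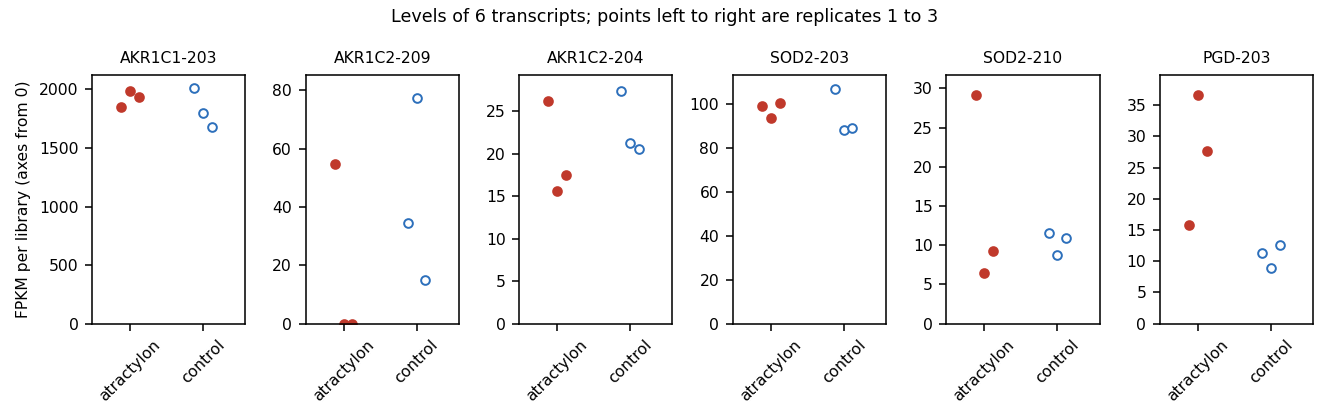
FPKM of 6 transcripts in each library (y axes from 0); filled points are atractylon and open points control libraries, with replicates 1 to 3 from left to right. AKR1C2-209 is at 0 in 2 atractylon libraries and between 14.9 and 77.5 in the controls, and SOD2-210 is at 29.1 in atractylon replicate 1 alone. PGD-203 is the 1 of these 6 whose groups do not overlap, among 16 such transcripts of the 143 tested. The share over all transcripts was not computed.

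Libraries of the same group differed along the GC content and the length of the members. A member's deviation in a library was set against its GC content. Across the 36 members, Spearman's correlation of these measures came to -0.76, 0.83 and 0.60 in the atractylon libraries, in order of replicate number, and to -0.76, 0.37 and -0.01 in the control libraries. The same measure over all 12301 genes was -0.60, 0.60 and 0.39 in atractylon libraries, and -0.42, 0.18 and 0.02 in control libraries. With length in place of GC, the members' correlations were 0.54, -0.49 and -0.34 in atractylon libraries and 0.11, -0.43 and 0.53 in control libraries, so control replicate 3 had a length trend beside a GC trend near 0. These describe the libraries, since genes of one library share its preparation. Of 13 members under 46% GC, among them NFE2L2, SLC7A11, GCLC, GCLM, PRDX3 and SOD2, atractylon replicate 1 was the highest atractylon library in 9, and of 23 members with more GC in 0. With an offset that removes each library's GC trend, the members' log2 fold changes ran from -0.27 to 0.26, and 0 of 36 passed at either threshold.

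**Figure D4:**
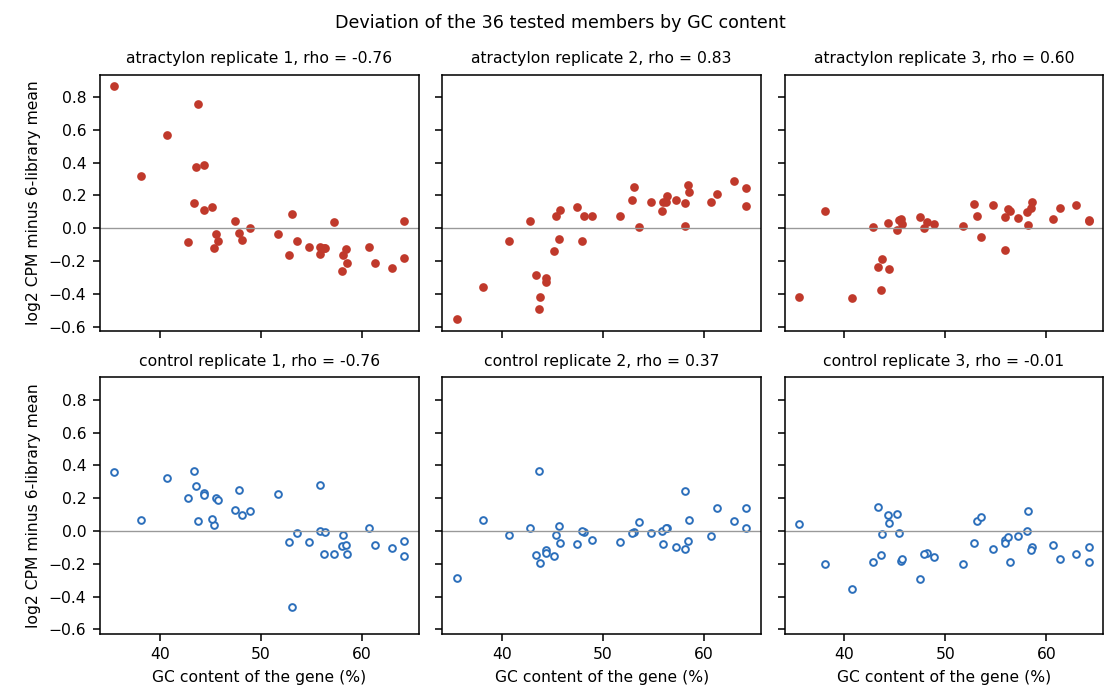
Deviation of each of the 36 tested members from its 6-library mean, in log2 CPM (y axis), against the GC content of the gene (x axis), 1 panel per library, with atractylon libraries in the top row and control libraries in the bottom row. The slope is downward in replicate 1 of both groups and upward in atractylon replicates 2 and 3.

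Leaving out atractylon replicate 1 changed the number of members near the threshold more than leaving out any other library. Without atractylon replicate 1, 11 of 36 members (30.6%) had an unadjusted p below 0.05 by edgeR. The share of all genes was 10.7%, beside 1.59% with all 6 libraries, so it rose as well. After adjustment 0 members passed, with the lowest adjusted p at 0.321 by edgeR. The 5 with lower values in atractylon were NFE2L2, SLC7A11, GCLC, AKR1C2 and SOD2, at 35.5% to 44.4% GC, and the 6 with higher values were PRDX2, GPX2, GPX4, PGD, TALDO1 and TKT, at 52.8% to 63.0% GC. The atractylon libraries left in that comparison both had positive GC trends, so in it the treatment cannot be told apart from the GC trend. With the GC offset as well, 6 of 36 members (16.7%) had an unadjusted p below 0.05, against 5.28% of all genes. Of these, GPX2, PGD, TKT and AKR1C2 were in the earlier 11, and PRDX6 and AKR1B10 were not.

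In 5 lists of other genes of these systems, 0 genes passed an adjusted p of 0.05 by edgeR. Among 22 tested NRF2 targets outside the members, 10 had positive and 12 negative fold changes (median -0.002). An unadjusted p below 0.05 by edgeR was found in 2 of the 22, against 1.59% of all genes. The groups did not overlap in 4 of the 22, higher in some and lower in others, against 5.72% of all genes in either direction. GSTA1, a glutathione transferase of hepatocytes, was among the 2 and among the 4. It was at 47.6, 57.3 and 55.6 CPM in atractylon libraries, against 73.1, 64.6 and 62.4 CPM in control libraries. Every atractylon library was below every control library, which held for 3.01% of all genes. GSTA1 did not pass the adjustment (adjusted p = 0.9999 by edgeR). In each list that follows, the 2 genes named are those with the smallest unadjusted p by edgeR. They were not chosen as typical of their list. Among 13 regulators, 6 had positive and 7 negative fold changes (median -0.002), with BACH1, a repressor that competes with NRF2 for its sites, at 34.4 ± 6.93 CPM in atractylon libraries and 41.5 ± 8.22 CPM in control libraries (SD, n = 3 each), and PGAM5, a KEAP1-binding mitochondrial phosphatase, at 104 ± 5.89 CPM and 96.1 ± 3.22 CPM in the same order. Of 14 genes of glutathione turnover and glutaredoxins, 5 were positive and 9 negative (median -0.004), including GGT1, which breaks down extracellular glutathione, at 90.4 ± 11.6 CPM in atractylon libraries and 82.4 ± 4.25 CPM in control libraries, and GGCT at 7.26 ± 1.645 CPM and 8.45 ± 1.07 CPM. Of 12 genes of the thioredoxin system and protein repair, 6 were positive and 6 negative (median -0.011). TXNIP, which inhibits thioredoxin, was at 13.1 ± 4.28 CPM in atractylon libraries and 17.4 ± 4.09 CPM in control libraries, and MSRA, a methionine sulfoxide reductase, at 9.90 ± 1.04 CPM and 7.23 ± 0.909 CPM. Of 9 other superoxide and quinone enzymes, 8 were positive and 1 negative (median 0.053), including CBR4 at 11.8 ± 3.06 CPM in atractylon libraries and 8.54 ± 1.56 CPM in control libraries, and HMOX2 at 126 ± 17.4 CPM and 114 ± 8.85 CPM.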

How the data were processed

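RNA of 6 HepG2 libraries was analysed, 3 per group by the titles. The authors deposited 180253 transcripts, each with expected counts and FPKM values in every library, per the file headers. The submitters' processing notes name hg19, HISAT2 2.0.1, cutadapt 1.9.1, bcl2fastq 2.17.1.14 and DESeq2 1.6.3, with no role. Which program and annotation gave the counts, and whether strand was used, is not given in the sources used here. Copies and pseudogenes can take reads from members, which was not tested. GENCODE classes the GPX1 gene itself as a polymorphic pseudogene. Its transcript GPX1-202, classed as protein-coding, held 99.2% to 99.7% of its FPKM. The deposited table also gave a transcript length in bases.

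Transcripts were matched by ID to GENCODE 29 (153243, 85.0%), and values were summed per gene ID. SOD2 has a second ID with 0 to 19.6 counts per library, left out. GENCODE 29 is on another build than the hg19 of the notes, so no gene coordinates are given with the expression values. Promoter coordinates are RefSeq's, on GRCh38.p14. Genes with at least 0.5 FPKM in at least 3 libraries were tested on rounded summed counts with edgeR 4.0.16 (TMM, glmQLFit, glmQLFTest, 2-sided), and transcripts likewise. Standard errors come from the quasi-likelihood statistic. Alternatives used DESeq2 1.42.0, limma 3.58.1, other filters, a GC offset and libraries left out. The edgeR test was run on simulated counts that had no GC or length trend, so that check does not cover the trends of these libraries.

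Members and lists were chosen with earlier results of these data known. Values in every library are given for NFE2L2, KEAP1, SQSTM1, 9 common readouts, the 4 members with the smallest p, those without overlap and the 3 most abundant, and for a few others that vary between libraries, chosen after their values were seen. One gene of the other lists is not reported here.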

Additional observations from a re-analysis of the deposited data

How the results depend on the processing

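No member passed an adjusted p of 0.05 under any of the 17 alternatives, and no member transcript under the alternatives run for transcripts. The GC offset without atractylon replicate 1 was chosen after seeing the data. The number of members at an unadjusted p below 0.05, 0 with all libraries, was 2 with the replicate block (NFE2L2 and GSR; 5.56%, against 2.42% of all genes), 1 with the replicate block and GC offset together (GSR; 2.78%, against 2.2% of all genes), 6 with the GC offset and without atractylon replicate 1, and 0 to 11 over the libraries left out in turn. The replicate numbers were not taken as pairs, because nothing in the labels says that they mark pairs. The deviations of same-numbered libraries correlated at 0.13, 0.18 and 0.01. Correlations between differently numbered libraries were not computed, so these values do not decide whether the numbers mark pairs. The median log2 fold change of the members stayed positive, from 0.004 to 0.080. Of 340 fold changes of the 20 members described by library, 306 kept their sign and 34 did not. SQSTM1, GCLC, SLC7A11 and SOD2 were at -0.021, 0.055, -0.457 and -0.050 by limma on log2(FPKM + 0.5), and at -0.021, 0.055, -0.553 and -0.051 with 0.1 in place of 0.5. SLC7A11 was at -0.056 with the replicate block. SQSTM1 and SLC7A11 were at -0.043 and -0.039 with the GC offset, -0.039 and -0.076 with the replicate block and GC offset, and -0.023 and -0.314 with the GC offset without atractylon replicate 1, where SOD2 was at -0.069. Over the libraries left out in turn, log2 fold changes ran from -0.005 to 0.141 for KEAP1, -0.079 to 0.085 for SQSTM1, -0.031 to 0.082 for NQO1, -0.337 to 0.033 for GCLC, -0.088 to 0.229 for GCLM, -0.551 to 0.300 for SLC7A11, -0.240 to 0.267 for PRDX3, -0.253 to 0.393 for SOD2 and -0.003 to 0.140 for AKR1C1. The cause was not tested. The other 11 members kept their sign in all 17, but not their size: AKR1C2 ran from -0.697 to -0.143. The 3 libraries per group and 5859575 to 8832092 counts per library limit what could be detected.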
